A study of Rattus norvegicus with 30 samples.

Results

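The genes described here carry copper into, through and out of cells. They are the uptake transporters Slc31a1 and Slc31a2, the export pumps Atp7a and Atp7b, the chaperones Atox1, Ccs, Cox17 and Sco1, the regulator Commd1 and the secreted carrier Cp, 10 genes in all. They were chosen by name, as every array probe whose RefSeq transcript belongs to one of these symbols, which gave 14 probes. Of these, 12 probes from 9 of the genes passed a filter on dim signals, so that 9 of the 18421 genes tested are members of this set. Slc31a1 did not pass.

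RNA of whole lung was measured in 30 adult male Wistar Unilever rats (HsdCpb:WU, an outbred strain), which were 8 weeks old on arrival. Rats breathed copper oxide nanoparticles through a nose-only inlet on 5 days. The groups, of 5 rats each, were 13.2 mg/m3 (high dose), 3.3 mg/m3 (low dose) and air, all sampled on day 6, which was 1 day after the last exposure, and on day 28, which was 22 days after it. The labels name the nanoparticle as the treatment of the 0 mg/m3 rats too, but the exposure protocol has a group given air alone, and the 0 mg/m3 rats are taken as that group. Each rat gave 1 array with 2 colours, lung RNA in Cy5 and a reference RNA common to all arrays in Cy3. Values are log2 ratios of lung over reference, so a difference of 1 between groups is a doubling, and a value above 0 says only that lung RNA was brighter than the reference at that probe.

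Copper is needed by enzymes of respiration, antioxidant defence and connective tissue, and is toxic when free in the cell. It enters mainly through the high affinity transporter encoded by Slc31a1, and small chaperone proteins hand it to its destinations: Atox1 to the pumps, Ccs to the superoxide dismutase Sod1, and Cox17 and Sco1 to cytochrome c oxidase in mitochondria. The pumps Atp7a and Atp7b load copper onto secreted enzymes and move to export it when copper is high. Ceruloplasmin, the product of Cp, is a copper-carrying ferroxidase that the liver secretes and that rises in plasma during the acute phase response, and it is also made in lung.

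Whole lung mixes cell types, so fewer cells of a type and less RNA per cell cannot be told apart. The mean log2 ratio of 7 measured alveolar type II markers, among them Sftpc and Sftpb, lay between 6.47 and 7.66 in all 30 rats, and that of 7 type I markers between 3.26 and 4.42. Within these ranges the type II mean was 7.28 in high dose, 7.23 in low dose and 6.86 in air rats of day 6. Of the 7 type II markers 2 were called higher at the high dose, beside 21.0% of all genes, and 1 at the low dose, beside 4.96%. These counts are read as no result about type II cells. Of 4 erythroid markers 3 were lower at the high dose on day 6, beside 15.5% of all genes. The median Cy5 signal of the arrays ranged from 216 to 432, and 59.5% to 68.4% of probes were well above background. In air rat 4 of day 6 the mean of 7 heart muscle markers was 4.72, while in the other 4 air rats of that day it lay between -0.61 and 0.51. The highest rat of the low dose on day 6 was at 2.58, and those of the high and low dose on day 28 were at 1.80 and 1.74. Values without air rat 4 are given for the members at the high dose on day 6, for Cp also at the low dose, and for the counts over the copper lists.

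Sequences around the annotated start, taken as promoters, are shown for the 3 members that passed the test at the high dose (Cp, Atox1 and Atp7a). They are shown also for Slc31a2, whose probes disagreed, and for Mt1, a metallothionein with known metal response elements, as a comparison. They are RefSeq sequences of build GRCr8, 250 bases before to 50 bases after the annotated start, 5′ to 3′ on the strand of the gene: Cp at chr2:104368420-104368719 (+ strand), Atox1 at chr10:40080512-40080811 (- strand), Atp7a at chrX:75203270-75203569 (+ strand), Slc31a2 at chr5:80753368-80753667 (+ strand) and Mt1 at chr19:10832926-10833225 (- strand). Capitals mark matches, on either strand, to the metal response cores TGCACNC and TGCGCNC, the antioxidant response core TGACNNNGC or the hypoxia response core ACGTG.
Cp: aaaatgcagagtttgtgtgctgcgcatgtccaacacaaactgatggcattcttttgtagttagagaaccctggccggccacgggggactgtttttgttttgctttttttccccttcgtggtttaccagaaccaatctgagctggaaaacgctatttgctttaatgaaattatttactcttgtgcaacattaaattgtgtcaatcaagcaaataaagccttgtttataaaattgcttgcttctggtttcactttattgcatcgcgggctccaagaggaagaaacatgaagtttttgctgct
Atox1: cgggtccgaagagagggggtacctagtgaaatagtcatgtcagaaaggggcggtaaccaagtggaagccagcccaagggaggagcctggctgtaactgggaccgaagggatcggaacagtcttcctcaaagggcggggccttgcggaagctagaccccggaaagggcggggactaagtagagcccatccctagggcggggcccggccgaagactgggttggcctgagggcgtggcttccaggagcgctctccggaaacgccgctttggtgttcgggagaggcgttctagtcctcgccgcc
Atp7a: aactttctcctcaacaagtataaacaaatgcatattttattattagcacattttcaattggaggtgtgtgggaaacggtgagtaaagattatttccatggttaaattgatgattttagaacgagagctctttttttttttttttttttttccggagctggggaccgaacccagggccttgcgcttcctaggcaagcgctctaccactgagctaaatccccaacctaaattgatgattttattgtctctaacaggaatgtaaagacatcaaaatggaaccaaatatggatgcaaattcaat
Slc31a2: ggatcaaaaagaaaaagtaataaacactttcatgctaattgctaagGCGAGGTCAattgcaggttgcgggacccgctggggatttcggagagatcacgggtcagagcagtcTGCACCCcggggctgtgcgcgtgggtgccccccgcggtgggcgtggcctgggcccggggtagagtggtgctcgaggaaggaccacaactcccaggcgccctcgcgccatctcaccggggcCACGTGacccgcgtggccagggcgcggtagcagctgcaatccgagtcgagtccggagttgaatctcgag
Mt1: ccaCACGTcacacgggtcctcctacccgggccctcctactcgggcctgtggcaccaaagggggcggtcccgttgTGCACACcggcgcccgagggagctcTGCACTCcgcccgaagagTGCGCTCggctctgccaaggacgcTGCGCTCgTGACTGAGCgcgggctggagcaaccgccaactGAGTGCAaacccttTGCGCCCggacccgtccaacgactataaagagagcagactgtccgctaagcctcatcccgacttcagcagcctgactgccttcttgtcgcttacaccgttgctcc

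The Mt1 promoter held 6 metal response cores, with first bases at positions from -176 to -55 relative to the start, 1 antioxidant core and 1 hypoxia core. No match to any of these letters lay in the windows of Cp, Atox1, Atp7a or Sco1. The annotated starts were not checked. The Atp7a window reads like the end of an intron followed by coding sequence, so it may not hold the promoter, and its lack of matches says nothing about that promoter. Slc31a2 held a TGCACNC core at position -139, an antioxidant core and a pair of overlapping hypoxia cores. Over all 10 members, each of which had such a window, 5 held either metal core (Slc31a2, Atp7b, Ccs, Cox17 and Commd1), and the share among 33469 rat promoters was 24.2%. The single motifs occurred in 12.2% (TGCACNC), 14.1% (TGCGCNC), 12.1% (antioxidant) and 19.3% (hypoxia) of those promoters. A match is a description of letters and not a site.

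At the high dose on day 6, 3 of the 9 members passed an adjusted p of 0.05 (limma, Benjamini-Hochberg over all genes tested), Cp and Atox1 higher and Atp7a lower. The share of all genes was similar, with 36.5% of the 18421 genes called, made up of 21.0% higher and 15.5% lower. The balance turned with the scaling: 57.6% of these calls were higher, against 43.5% with median centring, 46.0% in the authors' deposited table and 47.5% from Cy5 by itself. At the low dose Cp alone passed, 1 of 9 members, where 6.7% of all genes were called and 4.96% were higher. The median log2 fold change of the 9 members was -0.01 at the high dose and 0.01 at the low dose, beside 0.01 and 0.00 over all genes. These shares are read as no result about the set, and the members are described one by one.

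**Figure D1:**
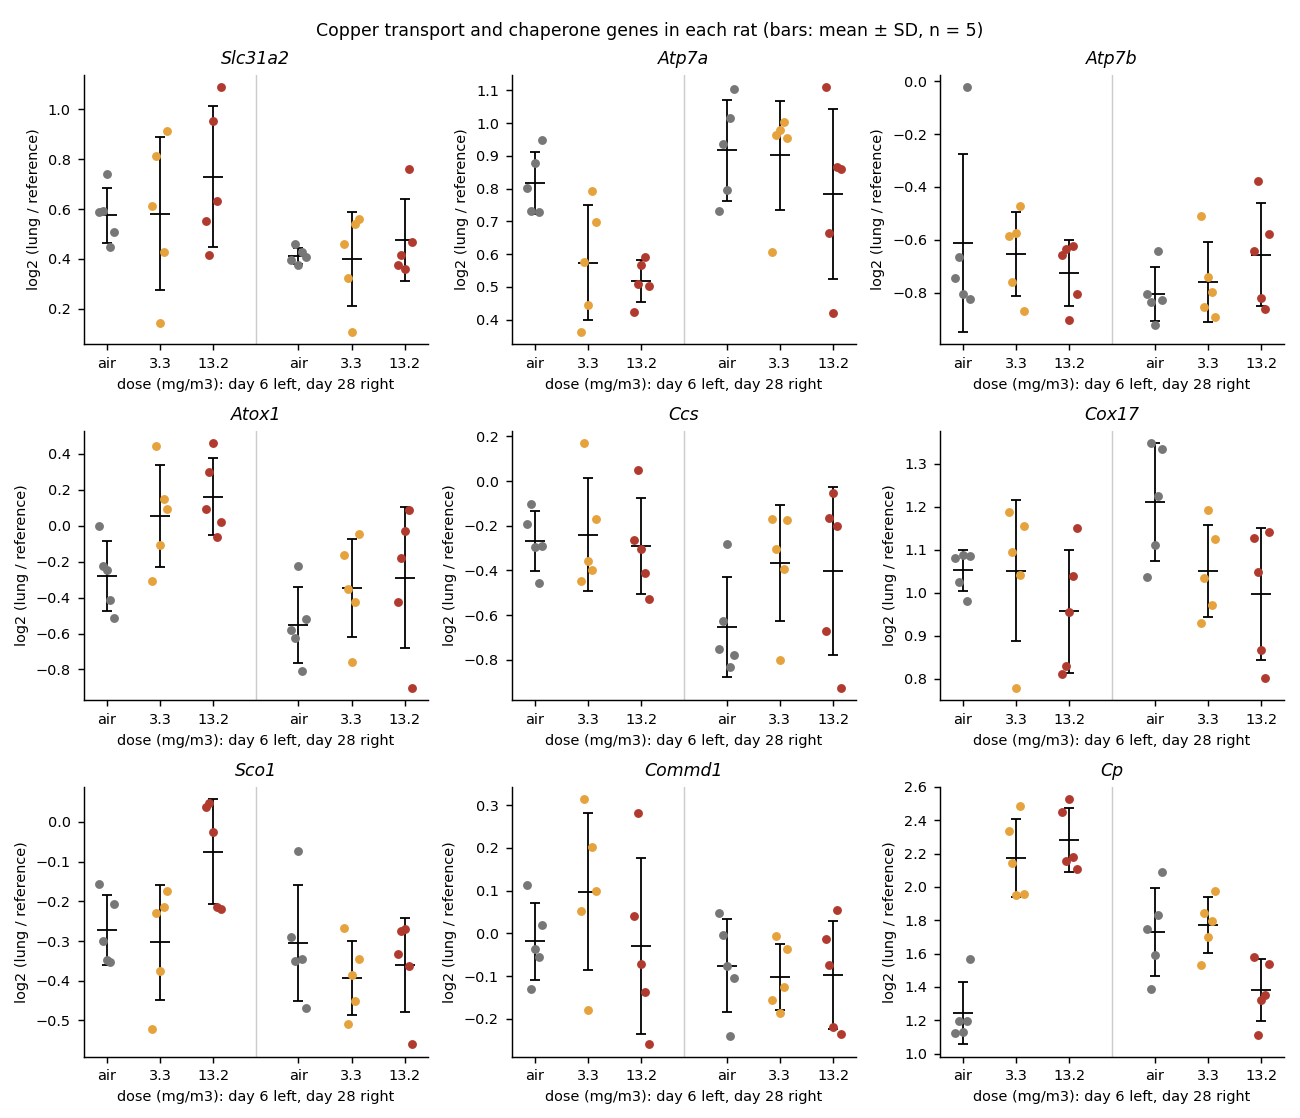
Log2 ratio of lung over reference in each rat (points) for the 9 members tested, with the mean and SD of 5 rats, by dose in mg/m3 on day 6 (left of the grey line) and day 28 (right). For Cp the exposed rats of day 6 (1.95 to 2.53) do not overlap the air rats of that day (1.12 to 1.57), and the axes of the panels differ.

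**Figure D2:**
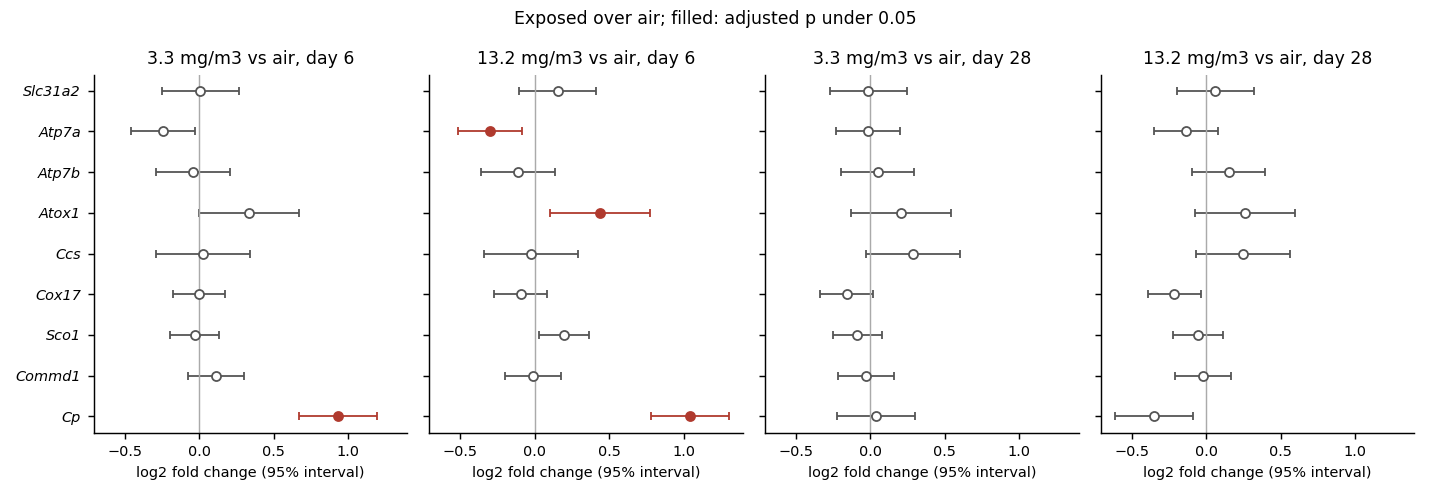
Log2 fold change of exposed over air rats with its 95% interval for the 9 members in 4 comparisons. Filled points passed an adjusted p of 0.05: Cp, Atox1 and Atp7a at the high dose and Cp at the low dose on day 6, and none on day 28.

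The secreted carrier Cp had the largest difference of the 9 members. Its log2 ratios were 2.45, 2.15, 2.53, 2.18 and 2.11 in the high dose rats of day 6, against 1.12, 1.19, 1.13, 1.19 and 1.57 in the air rats of that day. In the low dose rats they were 2.33, 2.15, 1.95, 2.49 and 1.96. The lowest of the 10 exposed rats was above the highest air rat, and the air rat at 1.57 was the nearest to them. Cp RNA was 2.06-fold higher at the high dose (95% interval 1.72 to 2.47; log2 fold change 1.04 ± 0.13, SE, adjusted p = 2.58e-07) and 1.91-fold higher at the low dose (1.59 to 2.29; 0.93 ± 0.13, adjusted p = 1.06e-05). Without air rat 4 the log2 fold changes were 1.03 and 0.92.

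The doses, which differ 4-fold in concentration, did not differ detectably in Cp. The log2 difference of high over low dose was 0.11 with a 95% interval of -0.15 to 0.37 (limma, adjusted p = 0.675). The interval leaves room for a rise of 1.29-fold or a fall to 0.899 of the low dose level. Within each of the 4 slides, which hold rats of several groups each, Cp was higher than in air rats by 0.81 to 1.40 at the high dose and by 0.76 to 1.36 at the low dose. A second Cp probe was well above background on 0 of 30 arrays in either colour and gives no value, so Cp rests on 1 probe.

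On day 28 no Cp difference from air passed the test. The ratios were 1.58, 1.11, 1.32, 1.35 and 1.54 in high dose rats and 1.53, 1.85, 1.70, 1.80 and 1.98 in low dose rats, against 1.75, 1.39, 1.59, 1.83 and 2.09 in air rats. The low dose rats lay among the air rats, while 3 of the 5 high dose rats lay below every air rat. The high dose difference of -0.35 ± 0.13 had an unadjusted p of 0.0109 and an adjusted p of 0.231 (limma), and the low dose difference was 0.04 ± 0.13 (adjusted p = 0.95). The change of the effect between days passed the test at the high dose (-1.39 ± 0.18, adjusted p = 2.07e-06) and at the low dose (-0.89 ± 0.18, adjusted p = 0.00423). With median centring of the arrays in place of loess the low dose change was -0.62 and did not pass (adjusted p = 0.352).

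Those changes of effect hold a shift in the air rats as well. Cp averaged 1.73 ± 0.26 in air rats of day 28 and 1.24 ± 0.19 in air rats of day 6 (SD, n = 5 each), a difference of 0.49 ± 0.13 (SE, limma, adjusted p = 0.0362), at which 2.95% of all genes were called. Without air rat 4 its adjusted p was 0.0557, with slide as a block 0.0687, and it was lost when any of 7 of the 10 rats was left out. Cp was the only 1 of 9 members called in each of these 3 comparisons, where 16.7% (effect of the high dose) and 1.97% (effect of the low dose) of all genes were called.

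Markers of neutrophils moved with Cp in the same comparisons. Of all genes, 21.0% were called higher at the high dose on day 6 and 4.96% at the low dose. All 6 measured neutrophil markers, S100a8 and S100a9 among them, were called higher at both doses on day 6. Their mean log2 ratio was 2.86 to 3.25 in high dose rats and 2.23 to 2.97 in low dose rats, against 0.66 to 0.96 in air rats of day 6, and on day 28 it was 0.63 to 1.54 in high dose, 1.24 to 1.91 in low dose and 1.31 to 1.70 in air rats. At the high dose 10 of 12 macrophage and monocyte markers were higher, beside 21.0% of all genes. Their list means were 0.95 to 2.20, against 0.23 to 0.30 in air rats. At that dose 5 of 7 alveolar type I markers and 3 of 7 endothelial markers were lower, beside 15.5% of all genes. In low dose rats 3 of 12 macrophage and monocyte markers were higher, with list means of 0.56 to 1.30. There 1 of 7 type I and 1 of 7 endothelial markers were lower, where 6.7% of all genes were called in either direction. The 5 measured hepatocyte markers (Alb and Apoa1 among them), which mark another source of Cp, had list means of -2.81 to -2.12 in high dose rats and -3.55 to -1.66 in air rats. Of these 1 of 5 was called higher at the high dose, close to the share of 21.0% over all genes. The highest hepatocyte mean, -0.16, was in a high dose rat of day 28. The part of these cells in the Cp difference was not tested.

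Among 11323 other genes with a symbol, those whose ratios followed Cp most closely over the 30 rats were Il1b, the cytokine interleukin 1 beta (r = 0.87), S100a9, a calcium-binding protein of neutrophils (r = 0.86), and Cyp51, an enzyme of cholesterol synthesis (r = 0.85). After the group means were subtracted the correlations were 0.42, 0.21 and 0.30. These correlations describe 30 arrays that share a design, and the likeness lay mostly in the group means. The log2 fold change of Il1b on day 6 was 2.04 at the high dose and 1.56 at the low dose.

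Of the copper pumps, Atp7a was lower at the high dose. Its log2 ratios were 0.42, 0.51, 0.57, 0.59 and 0.50 in high dose rats of day 6, against 0.80, 0.73, 0.88, 0.73 and 0.95 in air rats. The groups did not overlap, and the highest high dose rat (0.59) lay below the lowest air rat (0.73). The difference was -0.30 ± 0.10 (log2, SE, limma, adjusted p = 0.0252), or 1.23 times lower. In the low dose rats the ratios were 0.36, 0.58, 0.44, 0.79 and 0.70, with 4 of 5 below every air rat, and the difference of -0.24 ± 0.10 had an adjusted p of 0.176.

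Within the 4 slides the high dose difference of Atp7a was -0.37 to -0.18. The call was lost without air rat 5 (-0.27, adjusted p = 0.0677), high dose rat 75 (-0.28, adjusted p = 0.0576) or air rat 3 (-0.28, adjusted p = 0.0527), and without air rat 4 it was kept (-0.32, adjusted p = 0.027). On day 28 Atp7a averaged 0.78 ± 0.26 in high dose and 0.90 ± 0.17 in low dose rats, against 0.92 ± 0.15 in air rats (SD, n = 5 each). The intervals of both differences from air included 0. High dose rats spread from 0.42 to 1.11 on that day, with 2 below and 1 above all air rats.

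The genes most like Atp7a over the 30 rats were Champ1, a protein of chromosome alignment (r = 0.87), Nus1, a subunit of the enzyme that makes dolichol (r = 0.86), and Dlg1, a scaffold protein of cell contacts (r = 0.85). After subtraction of group means the correlations were 0.76, 0.77 and 0.71. In the same comparison the macrophage and neutrophil lists were higher as given above. Lower were 5 of 7 alveolar type I, 3 of 7 endothelial and 3 of 4 erythroid markers, beside 15.5% of all genes. Their list medians were -0.58, -0.42 and -0.50. The part of these lists in the Atp7a difference was not tested.

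Atp7b, the pump best known from liver, was dim. Its brighter probe was well above background on 15 of 30 arrays, 2 of 5 at the high dose and 4 of 5 in air rats on day 6, and on 0 of 5 in air rats of day 28. Ratios were -0.66, -0.64, -0.91, -0.62 and -0.81 in high dose rats of day 6, against -0.74, -0.67, -0.81, -0.02 and -0.83 in air rats. The value of -0.02 belongs to air rat 4 and stood far above the others. The high dose difference was -0.11 ± 0.12 (limma, adjusted p = 0.495) with that rat and 0.03 without it (adjusted p = 0.825). The second probe, above background on 13 arrays, differed by -0.02 ± 0.06, and the correlation of the probes over the rats was -0.16, so Atp7b could not be measured reliably at this signal.

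The chaperone Atox1, which passes copper to the pumps, was higher at the high dose. Its log2 ratios were 0.09, 0.30, 0.46, -0.06 and 0.02 in high dose rats of day 6, against -0.00, -0.23, -0.24, -0.41 and -0.51 in air rats. Of the high dose rats 4 lay above every air rat and 1 lay just below the highest of them. The rise was 1.36-fold (95% interval 1.08 to 1.71; 0.44 ± 0.16 on the log2 scale, SE, limma, adjusted p = 0.0356). Low dose rats ranged from -0.31 to 0.45 with a difference of 0.33 ± 0.16 (adjusted p = 0.25), and on day 28 the differences were 0.26 ± 0.16 (high dose) and 0.20 ± 0.16 (low dose), with adjusted p of 0.438 and 0.768.

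Atox1 was the least stable of the calls at the high dose. Within the 4 slides it was higher by 0.21 to 0.71. The call was lost without air rat 5, 4 or 3 or without high dose rat 76 or 77 (0.37 to 0.45, adjusted p 0.0515 to 0.108), and without air rat 4 alone it was 0.41 (adjusted p = 0.0735). It was also lost with median centring (0.37, adjusted p = 0.233) and in the authors' deposited table (0.38, adjusted p = 0.07). Atox1 followed the brightness of the arrays: over the 30 rats its correlation with the log2 median Cy5 signal was 0.73, and 0.80 after subtraction of group means. The median of that signal was 344 in high dose arrays of day 6 and 342.5 in air arrays, with ranges of 288 to 385 and 322 to 409, and its part in the difference was not tested.

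Ccs, which delivers copper to Sod1, gave no call against air. Its ratios were -0.26, 0.05, -0.30, -0.41 and -0.53 in high dose rats of day 6, against -0.19, -0.10, -0.30, -0.46 and -0.29 in air rats, and the groups overlapped. The high dose difference was -0.02 with a 95% interval of -0.34 to 0.29 (limma, adjusted p = 0.928), and -0.07 without air rat 4. On day 28 the differences were 0.25 ± 0.15 at the high dose and 0.29 ± 0.15 at the low dose (adjusted p = 0.434 and 0.76). The air rats themselves differed by -0.39 ± 0.15 between day 28 and day 6, with an unadjusted p of 0.0188 and an adjusted p of 0.132, and median Cy5 was 216 to 358 in air arrays of day 28 and 322 to 409 in those of day 6.

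Ccs and Atox1 varied together from rat to rat. Their correlation was 0.79 over the 30 rats and 0.85 after subtraction of group means, the highest of the 36 pairs of members. Sco1 correlated with Atox1 at 0.65 (0.64 after subtraction). The points share an array, and Ccs followed median Cy5 as well (r = 0.76). The 3 genes whose ratios were most like Atox1 were the proteasome subunit genes Psmc4 (r = 0.96), Psmb6 (r = 0.96) and Psmb2 (r = 0.95), with 0.93, 0.93 and 0.92 after subtraction of group means. At the high dose on day 6 the log2 fold changes were 0.41 (Psmc4), 0.54 (Psmb6) and 0.69 (Psmb2), beside 0.44 for Atox1.

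**Figure D3:**
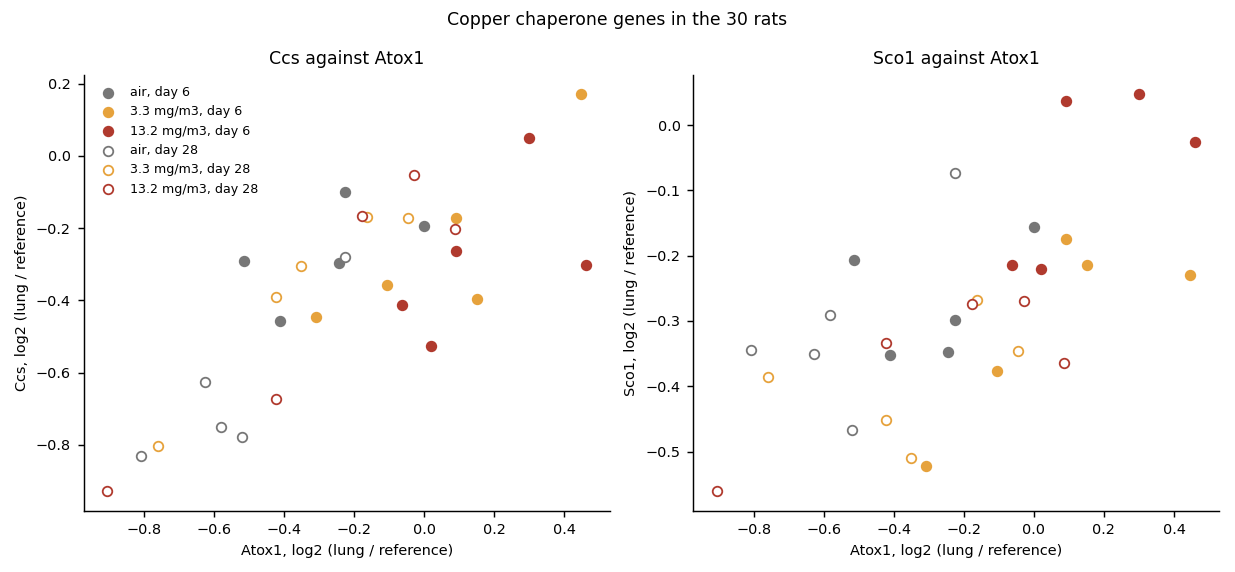
Log2 ratios of Ccs (left) and Sco1 (right) against Atox1 in the 30 rats, filled for day 6 and open for day 28, coloured by dose. Ccs and Atox1 lie along a rising band (r = 0.79), and the rat lowest in both is a high dose rat of day 28.

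Neither mitochondrial chaperone was called. Sco1, which inserts copper into cytochrome c oxidase, had ratios of 0.04, 0.05, -0.03, -0.21 and -0.22 in high dose rats of day 6, against -0.16, -0.30, -0.35, -0.35 and -0.21 in air rats. In 3 high dose rats it was above every air rat, and the other 2 lay inside the air range. The difference of 0.20 ± 0.08 missed the threshold (limma, adjusted p = 0.0605) and passed it with slide as a block (0.23, adjusted p = 0.0175). Without air rat 4 it was 0.18 (adjusted p = 0.122). The second Sco1 probe, which correlated with the first at 0.76, gave 0.34 ± 0.15 (adjusted p = 0.0808). High over low dose was 0.23 ± 0.08 for the first probe (adjusted p = 0.0689, and 0.0286 with slide as a block).

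Cox17, the chaperone that hands copper to Sco1, averaged 0.96 ± 0.14 in high dose rats and 1.05 ± 0.16 in low dose rats of day 6, against 1.05 ± 0.05 in air rats (SD, n = 5 each). Its high dose difference of -0.09 had a 95% interval of -0.27 to 0.08, and it was -0.11 without air rat 4. On day 28 the ratios were 1.13, 1.05, 0.87, 0.80 and 1.14 in high dose rats, against 1.04, 1.35, 1.11, 1.23 and 1.34 in air rats. Of the high dose rats 2 lay below every air rat and the other 3 lay in the lower part of the air range, and the difference of -0.21 ± 0.09 had an unadjusted p of 0.0196 and an adjusted p of 0.262 (limma). Commd1, which regulates the trafficking of the pumps, differed from air by -0.01 at the high dose and 0.12 at the low dose on day 6, with 95% intervals of -0.20 to 0.18 and -0.07 to 0.30. Without air rat 4 the high dose difference was -0.02.

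For the uptake transporters the outcome depended on the probe. The only Slc31a1 probe was well above background on 0 of 30 arrays in Cy5 and on 0 in Cy3, so no fold is given for the main copper importer. Slc31a2, a relative found in endosomes and lysosomes, had 2 measured probes. The brighter one, printed on 10 spots, gave 0.55, 0.42, 0.95, 0.63 and 1.09 in high dose rats of day 6, against 0.59, 0.59, 0.74, 0.45 and 0.51 in air rats. These ranges overlapped, with a difference of 0.15 ± 0.13 (limma, adjusted p = 0.363) and of 0.12 without air rat 4.

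The dimmer Slc31a2 probe gave 0.26, 0.22, 0.67, 0.41 and 0.50 in high dose rats, against -0.18, 0.07, -0.26, -0.25 and -0.13 in air rats. Here the groups did not overlap, and the difference was 0.56 ± 0.12 (limma on every probe, adjusted p = 0.0006), with 0.38 to 0.93 inside the 4 slides. The mean of both probes passed as well (0.36, adjusted p = 0.0127). The probes correlated at 0.68 over the rats. On day 28 this probe averaged -0.22 ± 0.27 in high dose and -0.25 ± 0.12 in low dose rats, against -0.34 ± 0.09 in air rats (SD, n = 5 each), with adjusted p of 0.67 and 0.878.

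**Figure D4:**
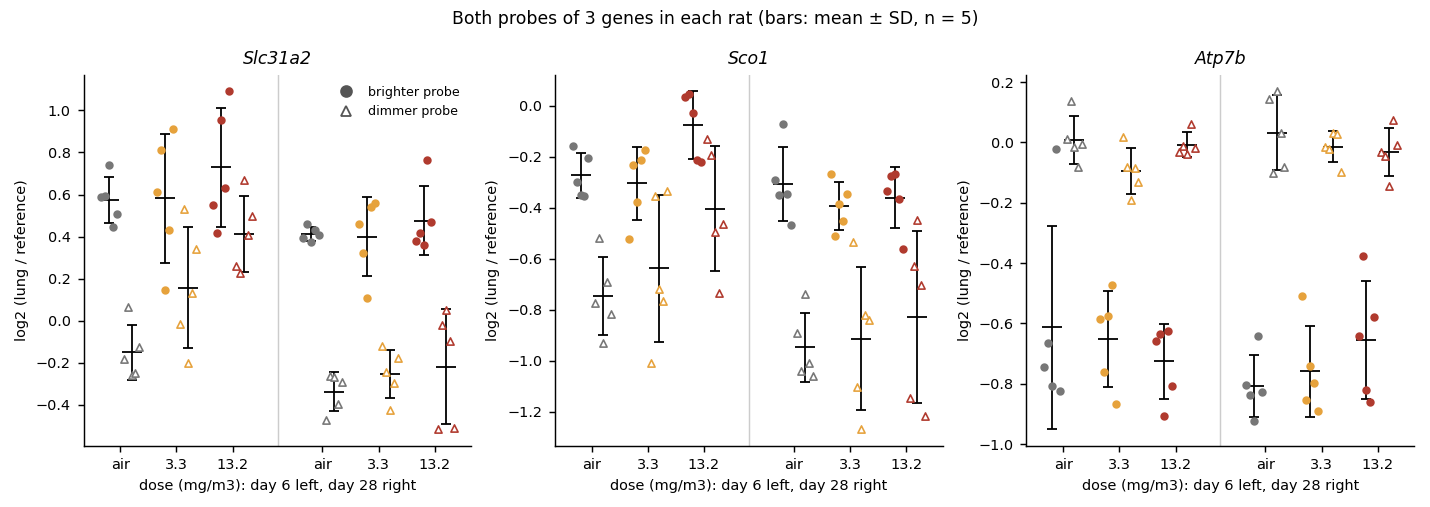
Log2 ratios of both probes of Slc31a2, Sco1 and Atp7b in each rat, with the mean and SD of 5 rats, by dose in mg/m3 on day 6 (left of the grey line) and day 28 (right). The dimmer Slc31a2 probe (open triangles) separates high dose rats (0.22 to 0.67) from air rats (-0.26 to 0.07) on day 6, where the brighter probe (filled circles) overlaps.

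On day 28 limma called 0 of the 9 members against air at either dose, beside 0.185% (high dose) and 0.0109% (low dose) of all genes. High against low dose gave 0 of 9 on day 6, beside 11.9% of all genes called, and 0 of 9 on day 28, beside 0.141%. At an unadjusted p under 0.05 there were 2 members at the high dose on day 28 (Cp and Cox17) and 0 at the low dose. For high against low dose there was 1 on day 6 (Sco1) and 1 on day 28 (Cp, -0.39 ± 0.13). The share of all genes at that unadjusted threshold was not counted, so these counts have no background beside them. By the exact two-sided permutation test of 5 rats against 5, the smallest possible p is 0.00794 and means only that the groups do not overlap. On day 6 it was reached by Cp at both doses, and by Atp7a and the dimmer Slc31a2 probe at the high dose. The share of all genes that reach it was not counted, so this is read as no result about the members.

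Other genes of copper handling, with some that act beside them such as Cox15, were taken from 5 lists. The lists were chosen with earlier results of these data known, so their shares are a description and no test of copper genes as a set. Of their 45 measured genes, 15 were higher and 6 lower at the high dose on day 6 (46.7%, beside 36.5% of all genes). The count was 5 higher and 4 lower at the low dose (9 of 45, beside 6.7% of all genes), and 0 were called against air on day 28 at either dose. The median log2 fold change of the 45 was 0.20 at the high dose and 0.07 at the low dose, beside 0.01 and 0.00 over all genes. Without air rat 4, a setting chosen after seeing the data, 20 of the 45 were called at the high dose (44.4%, beside 34.4% of all genes) and 7 at the low dose (15.6%, beside 7.13%).

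The largest increase among these lists was that of Mt1, a metallothionein, in the copper-binding list. In that list 3 of 9 were higher and 0 lower at the high dose, a share of 33.3% beside 36.5% of all genes. Mt1, a small cysteine-rich protein that holds zinc and copper ions, averaged 0.75 ± 0.62 in high dose rats and -1.50 ± 0.43 in air rats (SD, n = 5 each), a difference of 2.25 ± 0.22 (SE, adjusted p = 4.09e-09), and at the low dose it was higher by 1.06 ± 0.22 (adjusted p = 0.00207). Mt2A, a second metallothionein, was higher by 1.62 ± 0.18 at the high dose (adjusted p = 4.64e-08), and Gss, glutathione synthetase, by 0.36 ± 0.09. Prnp, the prion protein, which binds copper, differed by -0.17 ± 0.10 without passing. Mtf1, the factor that binds metal response elements, is named after its value was seen and gave no detectable difference (adjusted p = 0.997).

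Of 10 copper enzymes 3 were higher and 4 lower at the high dose, where 21.0% of all genes were higher and 15.5% lower. Aoc1, the diamine oxidase that degrades histamine, was higher by 1.93 ± 0.34 at the high dose and by 1.62 ± 0.34 at the low dose. Aoc3, an amine oxidase of vessel walls, was lower, with log2 fold changes of -1.91 ± 0.15 and -0.65 ± 0.15 at the same doses. In the high dose comparison 3 of 7 endothelial markers were lower too, and their part in the Aoc3 difference was not tested. Heph, hephaestin, the membrane-bound relative of ceruloplasmin, averaged 0.60 ± 0.21 in high dose rats and 1.23 ± 0.14 in air rats (SD, n = 5 each), a difference of -0.63 ± 0.10 (SE, adjusted p = 2.38e-05), opposite in direction to Cp. Sod3, the extracellular superoxide dismutase, was lower (-0.83 ± 0.14), while Sod1, the client of Ccs, which is named after its value was seen, differed by -0.09 ± 0.09 (adjusted p = 0.491).

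Among metal reductases and divalent metal transporters 3 of 7 were higher and 1 lower at the high dose, beside the same 21.0% and 15.5% of all genes. Slc11a2, the divalent metal transporter DMT1, averaged 1.45 ± 0.25 in high dose rats and 0.13 ± 0.12 in air rats (SD, n = 5 each), a difference of 1.32 ± 0.12 (SE, adjusted p = 5.66e-10), and at the low dose it was higher by 0.41 ± 0.12. Slc11a1, its relative in phagosomes of macrophages, was higher by 1.38 ± 0.31 at the high dose, where 10 of 12 macrophage and monocyte markers were higher, and their part in its difference was not tested. The metalloreductase Steap3 was higher by 0.47 ± 0.11 and Steap2 was lower (-0.51 ± 0.09). Reductases of this family convert copper to the form that transporters take up.

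In the Commd family and its partners 5 of 13 were higher and 1 lower at the high dose (46.2% called, beside 36.5% of all genes). At the low dose limma called 0 of 13, beside 6.7% of all genes. Ccdc93, a subunit of the complex that joins Commd proteins and returns Atp7a from endosomes, was higher by 1.00 ± 0.13 (adjusted p = 6.54e-07). Commd9 was higher by 0.60 ± 0.12 and Commd4 by 0.42 ± 0.10, and Commd2 was lower (-0.31 ± 0.08). Of the 6 measured genes listed under mitochondrial copper delivery, only Cox15 passed the test (0.25 ± 0.08, adjusted p = 0.0199, and 0.0774 without air rat 4). Its product makes heme A for cytochrome c oxidase and is not itself a copper carrier. The other 5 were not called, among them Cox11, Cox19 and Cmc1, which differed by -0.13, 0.18 and 0.36.

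**Figure D5:**
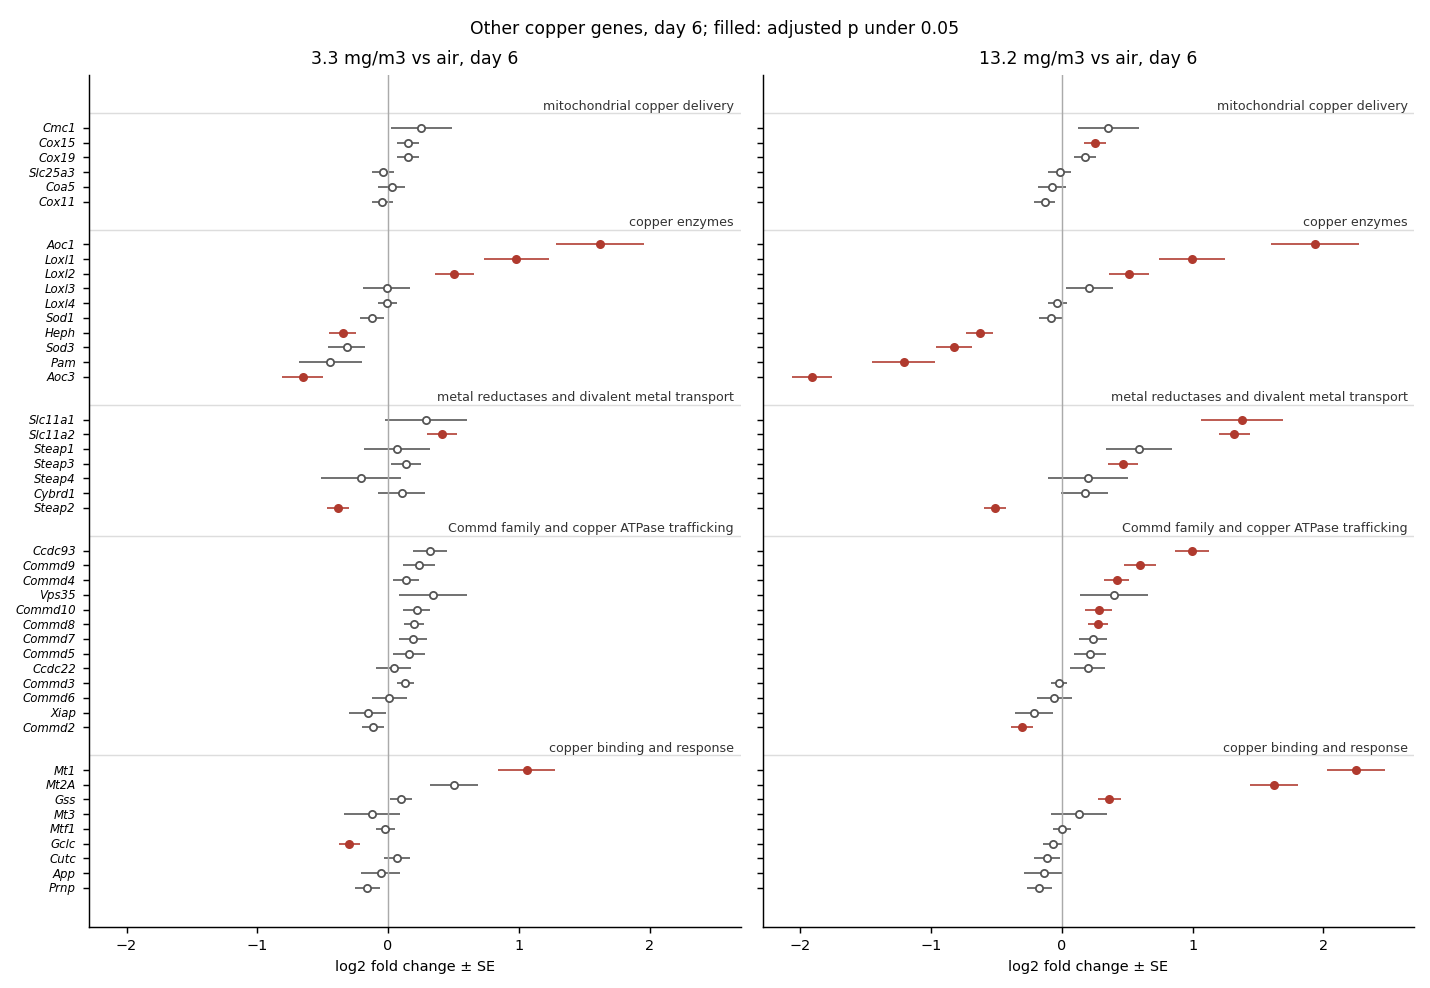
Log2 fold change of exposed over air rats on day 6 with its SE for the 45 measured genes of 5 copper lists, at 3.3 mg/m3 (left) and 13.2 mg/m3 (right). Filled points passed an adjusted p of 0.05, 9 at the low dose and 21 at the high dose, and Mt1 (2.25) and Aoc3 (-1.91) mark the ends at the high dose.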

How the data were processed

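Lung RNA and a common reference RNA were hybridised to 30 Agilent rat arrays. The labels name the reference inconsistently, as mouse reference RNA in the labelling protocol and as a rat reference of 14 cell lines in the channel 2 source. The deposited intensity values are spot signals of each colour, written by Agilent Feature Extraction 11.0.1.1 per the file headers. The authors' deposited table of log2 values correlated at 0.997 to 1.00 with within-array loess ratios without background correction, and served as an alternative.

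Median spot and background intensities were corrected by normexp (offset 50) and loess-normalised within arrays with limma 3.58.1 in R 4.3.3. The plan had named mean intensities. Control spots (6.76%) and outlier spots had weight 0. Spots were averaged per probe, and 20853 of 30367 probes that were well above background in Cy5 on at least 5 arrays were kept. The brightest probe stood for a gene, which left 18421 genes, 11331 with a symbol matched through RefSeq accessions (GRCr8). One limma fit held 6 group means of 5 rats, and p-values were adjusted by Benjamini-Hochberg over all genes in each of 9 comparisons. Precision is set by the number of arrays, and a difference of group means had a median SE of 0.115. The fit was tested on simulated data.

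The members and gene lists were chosen with earlier results of these data known. All members were named; of each copper list up to 4 genes, ranked by adjusted p in high dose rats of day 6, and the gene with the largest change; and for each member called against air the 3 most correlated genes. Alternatives were other background corrections, normalisations, filters, probe choices, array weights, slide as a block, only the groups compared, the exact permutation test and leaving out each rat.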

Additional observations from a re-analysis of the deposited data

Results flagged for a closer look

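Single rats stood apart in 4 of the 54 groups of 5 rats tested with Dixon's rule, where chance gives about 1 in 20. Cp in air rat 5 of day 6 was 1.57, while the other 4 air rats lay between 1.12 and 1.19. Atp7b in air rat 4 of day 6 was -0.0208, above -0.67 to -0.83 in the others, and this is the rat with a heart muscle marker mean of 4.72. Atp7a in low dose rat 52 of day 28 was 0.606, while the others lay between 0.96 and 1.00. Slc31a2 in high dose rat 83 of day 28 was 0.762, above 0.36 to 0.47 in the others.

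The effect of exposure on Cp differed between the days, tested as day 28 minus day 6 in the limma fit. The difference was -1.39 at the high dose and -0.89 at the low dose, with adjusted p of 2.07e-06 and 0.00423. With median centring the low dose value was -0.62 and did not pass (adjusted p = 0.352).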

How the results depend on the processing

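Of 2016 values of members recomputed under alternatives, 0 changed direction against a call. Most of these values belong to comparisons without a call, which had none to reverse, so this count says little about how stable the calls are. Cp at both doses on day 6 and the day difference of its high dose effect kept their calls in all 12 settings and without any single rat. With median centring in place of loess the count of members called was 1 (Cp) at the high dose on day 6, beside 28.5% of all genes. It was 0 for the low dose effect between days (0.863% of all genes) and 0 for air rats between days (0.689%). With slide as a block it was 1 for high against low dose on day 6 (Sco1), beside 13.4% of all genes, and 0 for air rats between days (2.00%). With array weights it was 2 for air rats between days (Ccs and Cp), beside 29.0% of all genes, where the main fit called 2.95%. Other settings also moved single calls at the high dose on day 6. Sco1 was gained with slide as a block (40.6% of all genes called) and Slc31a2 with the mean of a gene's probes (36.7%). Atox1 was lost in the authors' deposited table (37.4%). Leaving out 1 rat gave 1 to 4 members at the high dose on day 6, with 1 without air rat 5 or 3, and 0 to 2 for air rats between days, with 2 without air rat 8. All these counts are read as no result about the members as a set. The calls lost under median centring were Atp7a (-0.41, adjusted p = 0.0529), Atox1 (0.37, adjusted p = 0.233), the low dose effect of Cp between days (-0.62, adjusted p = 0.352) and Cp in air rats (0.27, adjusted p = 0.326), and the cause was not tested.

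Over all genes, the settings gave 5245 to 8247 calls at the high dose on day 6 (main 6720), 572 to 3081 at the low dose (1235) and 1008 to 3237 for high against low dose (2186). On day 28 they gave 8 to 105 (34), 2 to 126 (2) and 9 to 35 (26). They gave 1627 to 4148 (3084) and 159 to 1362 (362) for the high and low dose effects between days, and 127 to 5348 (544) for air rats. Of the calls at the high dose on day 6, 57.6% were higher, against 43.5% with median centring. The share was 46.0% in the authors' deposited table and 47.5% from Cy5 by itself. Median centring moved the median of all genes by 0.12 (low dose, day 28), -0.15 (high against low dose, day 28), 0.16 (low dose effect) and -0.12 (air rats). No paired analysis was possible because each number belongs to 1 rat and no groups share numbers. Signal limits Slc31a1, the second Cp probe and Atp7b, which were below or near background.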
